A study of Homo sapiens with 6 samples.

Results

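The SLC25 family of mitochondrial carriers was followed in libraries labelled as AGS cells with and without FTO depletion. Its members were taken as all protein-coding genes whose symbol begins with SLC25A, after the Ensembl identifiers of the expression table had been matched to symbols. The table listed 58174 genes, and 48 of them were such carriers. AGS is a cell line from a human gastric adenocarcinoma, and FTO is an RNA demethylase. The libraries of 1 group were titled si-NC, a negative control siRNA, and carried the genotype label wild type. Those of the other group were titled si-FTO, an siRNA against FTO, and carried the genotype label FTO-/-. The study's methods describe transfection with siRNA, so the groups are called si-NC and si-FTO here, and the time after transfection was not given. Each group had 3 libraries of total RNA from AGS, and nothing in the labels says that they came from separate cultures.

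The values are TPM, in which reads are divided by transcript length and each library is scaled to a fixed total, so levels can be compared between genes. The table holds the authors' mean of each group. The spread between libraries is therefore unknown and no test was made. The p-values of the authors' own comparison were not used, and each difference below is a difference between 2 means of unknown precision. TPM keeps no read number, so the depth is unknown. A value of exactly 0.0001 was read as 0 and is described as listed at 0. Differences are log2 ratios of si-FTO over si-NC on the log2(TPM + pseudocount) scale with a pseudocount of 1, and this scale understates how much low genes differ. A gene was compared when it reached 0.5 TPM in either group mean, and it was called higher or lower from a log2 ratio of 1 or -1 on, a fold of 2.

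Carriers of this family sit mostly in the inner mitochondrial membrane, which is otherwise closed to charged metabolites. Each is built from repeated pairs of membrane-spanning helices and exchanges its substrate between the cytosol and the matrix. Through them ADP and phosphate reach ATP synthase, ATP leaves, and amino acids, carboxylates, nucleotides, cofactors, iron and fatty acyl groups cross. Proliferating cancer cells draw on several of them, among them the export of citrate for lipid synthesis and the shuttling of aspartate.

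FTO itself (ENSG00000140718, chromosome 16) had the authors' mean of 33.1 TPM in si-NC against 7.27 TPM in si-FTO. Its log2 ratio was -2.05, and si-NC was 4.56 times as high as si-FTO. The targeted gene was thus lower in the group labelled for its depletion.

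Markers of the labelled cell type were checked before the carriers, and they did not match the label evenly. Of the 17 gastric and epithelial markers 11 were compared, and of these 6 were higher and 3 lower in si-FTO. By the same threshold 11.4% of all genes compared were higher and 17% lower. The summed level of all 17 was 128 TPM in si-NC against 5374 TPM in si-FTO. The keratin gene KRT8 led them in si-FTO with 3139 TPM, compared with 10.8 TPM in si-NC. KRT7 was listed at 0 in si-NC and had 253 TPM in si-FTO, while GATA4, a transcription factor of the stomach epithelium, had 36.96 TPM in si-NC and was listed at 0 in si-FTO. The defining epithelial gene EPCAM was low in both groups, with 1.22 and 0.113 TPM, and the gastric genes TFF1 and GKN1 were listed at 0 in both.

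Markers of other cell types differed as well. The 8 neuronal markers summed to 430 TPM in si-NC against 5.81 TPM in si-FTO, and 4 of the 5 compared were lower. UCHL1 led them in si-NC with 303 TPM, compared with 0.0204 TPM in si-FTO, whereas the neuronal gene STMN2 was listed at 0 in both groups. The 8 mesenchymal markers summed to 489 and 811 TPM, led by VIM with 440 and 752 TPM, and 2 of the 6 compared were higher and 2 lower. The 5 immune markers summed to 4.15 and 7.34 TPM, 1 of the 2 compared was higher and 1 lower, CD68 had the highest level with 6.42 TPM in si-FTO, and PTPRC was listed at 0 in both groups. Of the 3 endothelial markers, 2 were found, and CDH5 had 0.00827 TPM in si-NC against 40.9 TPM in si-FTO while VWF stayed at 0.00493 and 0.0537 TPM. The 2 group means therefore differed in many genes that mark cell types. Whether both groups came from the same cell population cannot be settled from these values, so no difference below can be assigned to FTO depletion alone. The part of these markers in the differences between carriers was not tested, and in bulk RNA fewer cells of a type cannot be told apart from less RNA per cell.

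Among the 48 carriers, 43 passed the filter on low values. The other 5 were SLC25A2, SLC25A31 and SLC25A47, which were listed at 0 in both groups, and SLC25A34 and SLC25A52, which stayed under 0.5 TPM. These are genes with a narrow known range, such as SLC25A31, the ADP/ATP carrier of the testis, and SLC25A47, a carrier of the liver. Of the 43 carriers compared, 4 were lower and 1 was higher in si-FTO by the threshold. Under median-ratio scaling 2 were lower and 3 higher, and under quantile normalization 2 and 2, so the excess of lower carriers did not hold under either. Among all 20493 genes compared, 17% were lower and 11.4% higher, and among the 14176 protein-coding genes compared the shares were 19.1% and 12%. Among the 11416 protein-coding genes that reached 5 TPM in either group, where 40 of the carriers fall with the same counts of 4 and 1, the shares were 16.9% and 12.5%. The shares of the carriers compared, 9.30% lower and 2.33% higher, were thus below those of all genes compared in both directions. With no filter, when genes listed at 0 in both groups also count, 8.33% of the 48 carriers were lower, above the 6.003% of all genes, while 2.08% were higher, below the 4.02% of all genes. A carrier could pass the filter through the group in which it was high, so these counts describe the genes compared and not the whole family.

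The middle of the family lay close to no difference. The median log2 ratio of the 43 carriers was -0.10, and it turned to 0.10 under median-ratio scaling of the 2 groups. The median of all genes compared was -0.20, and that scaling shifted the groups by a log2 ratio of -0.21. Relative to the median of all genes, 20 of the 43 carriers lay below and 23 above. Of the carriers, 22 (51.2%) had a log2 ratio under 0.5 in size, compared with 42.6% of the protein-coding genes. The interquartile range was 1.02 for the carriers and 1.16 for the protein-coding genes.

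**Figure D1:**
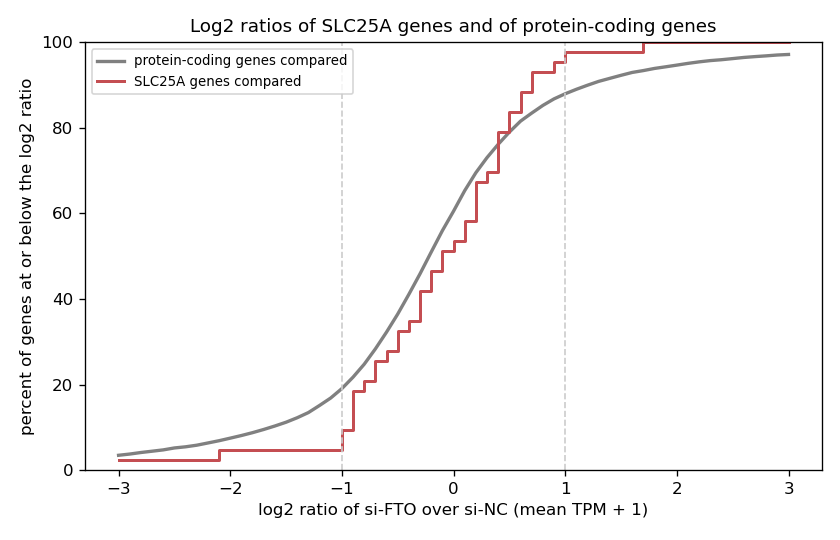
Percent of genes (vertical axis) at or below a given log2 ratio of si-FTO over si-NC (horizontal axis, mean TPM with a pseudocount of 1) for the 43 SLC25A genes compared and the 14176 protein-coding genes compared, with dashed lines at the threshold of 1. The line of the carriers is steeper, with 9.30% of them at or below -1 compared with 19.1% of the protein-coding genes.

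In level, the family was dominated by a few members. The carriers summed to 4032 TPM in si-NC against 3813 TPM in si-FTO, which was 0.403% and 0.381% of all TPM. The log2 ratio of the sums was -0.08, and it turned to 0.13 under median-ratio scaling and to 0.18 without SLC25A5. The same 5 genes led in both groups, in the order SLC25A5, SLC25A6, SLC25A3, SLC25A39 and SLC25A1, and they held 71.6% of the family's TPM in si-NC and 74.0% in si-FTO. At the other end, the median carrier had 19.8 TPM in si-NC against 18.8 TPM in si-FTO. At least 10 TPM was reached by 36 carriers in si-NC and by 31 in si-FTO.

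**Figure D2:**
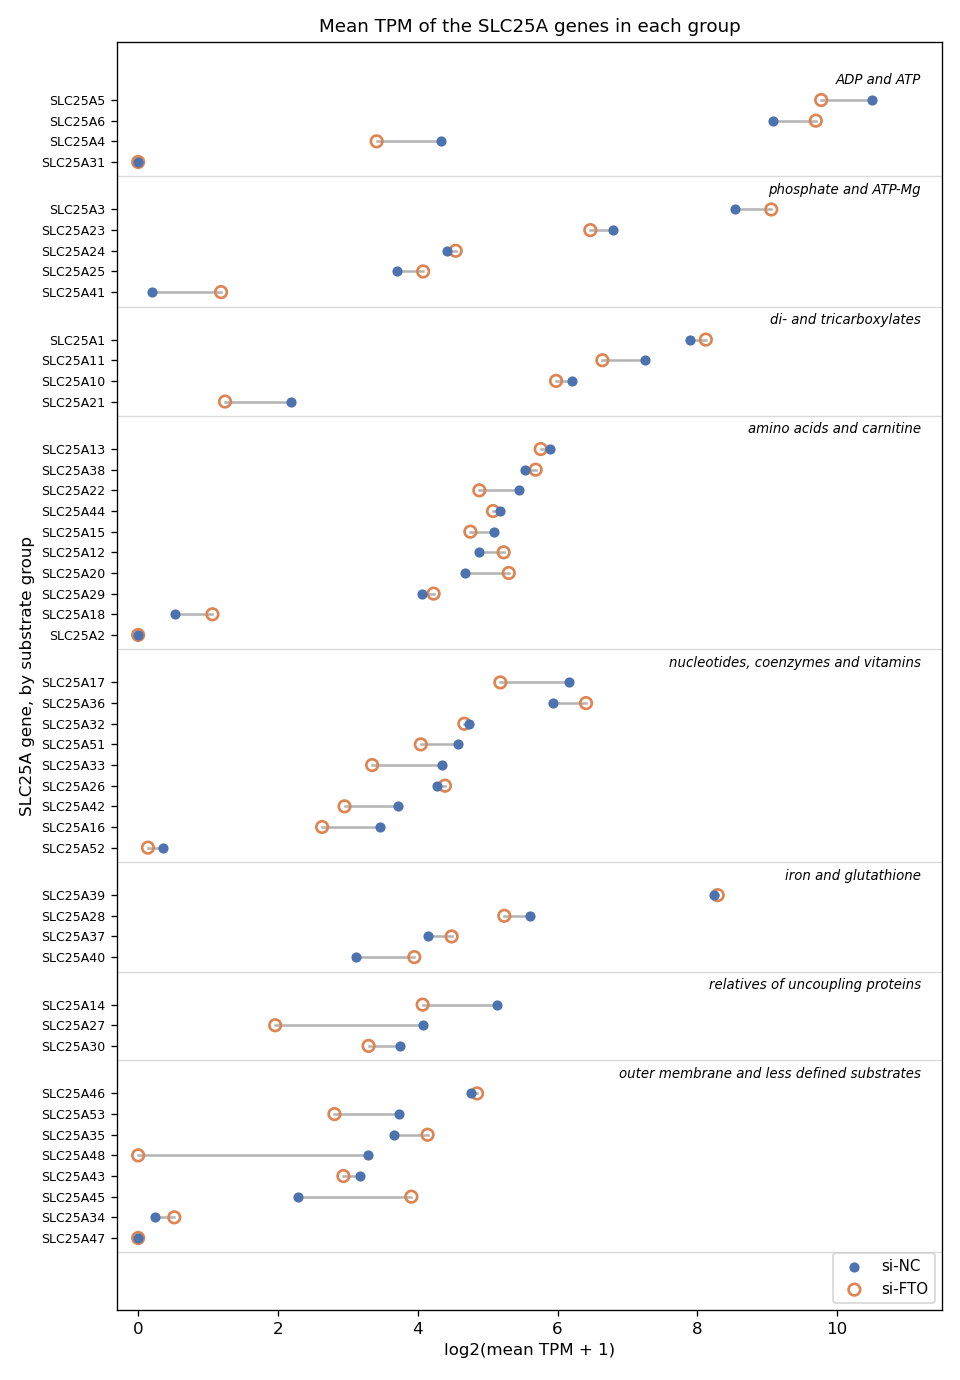
The authors' mean TPM of 47 of the 48 SLC25A genes in si-NC (filled points) and si-FTO (open circles), on a log2(TPM + 1) axis, with genes ordered within substrate groups by their level in si-NC. Most genes lie close together in the 2 groups, while SLC25A27 and SLC25A48 are lower and SLC25A45 is higher in si-FTO.

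The ADP/ATP carriers exchange matrix ATP for cytosolic ADP and are the most abundant proteins of the inner membrane in many cells. SLC25A5 (ENSG00000005022), the form typical of growing cells, had 1440.1 TPM in si-NC against 873 TPM in si-FTO, with a log2 ratio of -0.72. SLC25A6 (ENSG00000169100), a widely expressed form, had 540.2 TPM in si-NC against 828 TPM in si-FTO, with a log2 ratio of 0.61. SLC25A4, the form of heart and skeletal muscle, had 19.2 and 9.64 TPM, a log2 ratio of -0.93. The major forms thus lay on opposite sides, and relative to the median of all genes SLC25A5 stood at -0.52 and SLC25A6 at 0.82.

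The balance between these carriers shifted more than their sum. Together the 3 genes held 1999 TPM in si-NC against 1710.4 TPM in si-FTO, or 49.6% and 44.9% of the family. SLC25A5 made up 72.02% of that sum in si-NC against 51.0% in si-FTO, and SLC25A6 made up 27.0% and 48.4%. SLC25A5 was 2.67 times as high as SLC25A6 in si-NC and 1.05 times as high in si-FTO, so the ratio of SLC25A6 to SLC25A5 was 2.53 times as high in si-FTO. A ratio of this kind does not depend on how the groups are scaled to each other by a constant.

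**Figure D3:**
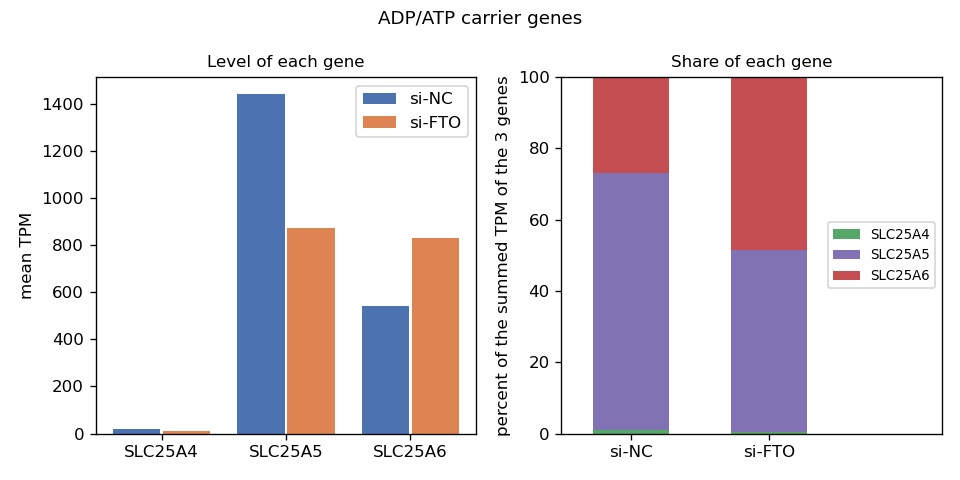
Left, the authors' mean TPM (axis from 0) of the ADP/ATP carrier genes SLC25A4, SLC25A5 and SLC25A6 in si-NC and si-FTO. Right, the percent of their summed TPM that each gene held, where SLC25A6 went from 27.0% in si-NC to 48.4% in si-FTO.

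Reads of such related genes can be split between them when transcripts are quantified, so their sequences were compared. The coding sequences of SLC25A5 and SLC25A6 both had 894 bases, of which 78.7% were identical, and the longest exact stretch that their transcripts shared was 29 bases. SLC25A4 shared 77.2% with SLC25A5 and 77.9% with SLC25A6. The annotation also holds processed copies, and the 9 pseudogenes of SLC25A5 summed to 0.242 TPM in si-NC against 0.542 TPM in si-FTO. Those of SLC25A6, 6 in number, summed to 0.288 and 0.0342 TPM. The copies thus held little TPM, although how the reads were divided is not known. The gene SLC25A5-AS1, on the opposite strand at SLC25A5, had 2.57 and 1.93 TPM, and since no source states that strand was used in counting, reads of the overlap cannot be told apart.

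Promoter sequences are shown for SLC25A5 and SLC25A6, which stood on opposite sides, and for SLC25A14 and SLC25A27, relatives of the uncoupling proteins that were both lower in si-FTO. The sequences are from RefSeq, whose table of GRCh38.p14 held 50 promoters of 40 of the 48 carriers. Among those without an entry were SLC25A2, SLC25A16, SLC25A30, SLC25A32, SLC25A35, SLC25A37 and SLC25A41. The 250 bases before the start were used, and an exact match placed each of the sequences shown once in its chromosome of GRCh37, ending next to the start of the gene's canonical transcript. Other annotated transcripts can begin earlier, so a window can reach into the span of the gene, and distances below are counted from the canonical start. The windows are chrX:118602157-118602406 on the plus strand for SLC25A5, chrX:1511007-1511256 on the minus strand for SLC25A6, chrX:129473643-129473892 on the plus strand for SLC25A14 and chr6:46620462-46620711 on the plus strand for SLC25A27. Capitals mark matches, on either strand, to the motifs described after the sequences.
SLC25A5: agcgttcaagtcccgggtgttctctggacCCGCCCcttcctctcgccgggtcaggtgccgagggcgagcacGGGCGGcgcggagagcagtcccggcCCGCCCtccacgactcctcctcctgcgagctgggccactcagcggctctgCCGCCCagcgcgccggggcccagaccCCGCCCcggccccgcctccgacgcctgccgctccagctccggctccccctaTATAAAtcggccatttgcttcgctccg
SLC25A6: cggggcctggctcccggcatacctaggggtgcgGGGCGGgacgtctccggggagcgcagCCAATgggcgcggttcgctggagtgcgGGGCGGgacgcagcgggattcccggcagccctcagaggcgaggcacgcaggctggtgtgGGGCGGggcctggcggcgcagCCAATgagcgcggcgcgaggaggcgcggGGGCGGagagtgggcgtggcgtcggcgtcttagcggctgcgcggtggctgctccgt
SLC25A14: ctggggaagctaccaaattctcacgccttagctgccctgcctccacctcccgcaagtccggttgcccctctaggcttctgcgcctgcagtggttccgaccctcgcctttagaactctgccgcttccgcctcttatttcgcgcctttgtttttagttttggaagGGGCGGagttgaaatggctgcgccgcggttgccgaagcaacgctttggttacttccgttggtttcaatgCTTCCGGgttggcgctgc
SLC25A27: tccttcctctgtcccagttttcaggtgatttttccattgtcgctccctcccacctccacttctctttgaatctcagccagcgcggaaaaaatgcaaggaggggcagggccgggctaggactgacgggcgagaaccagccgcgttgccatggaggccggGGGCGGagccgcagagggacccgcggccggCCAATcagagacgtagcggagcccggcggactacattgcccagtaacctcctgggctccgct

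Across these windows 7 motifs were searched on both strands, and no matches overlapped in the windows shown. The GC box, GGGCGG, was found 5 times before SLC25A5, 4 times before SLC25A6 and 1 time each before SLC25A14 and SLC25A27. SLC25A5 alone among these had a TATA box, TATAAA, starting 27 bases before the transcript start, and SLC25A6 had the CCAAT box, CCAAT, 2 times. SLC25A14 had a match to the ETS core, CCGGAAG, 18 bases before the start, and SLC25A27 had a CCAAT box 62 bases before it. A match describes letters in the sequence and does not show that a factor binds there.

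The promoters of the family were rich in G and C, with a median of 65.4% compared with 58.4% over all 34961 promoters. The GC box was present in 66% of the 50 carrier promoters and in 42.7% of all promoters. The CCAAT box was present in 42% and 32.0%, the ETS core in 22% and 8.52%, and the E-box, CACGTG, in 16% and 6.35%. The TATA box was present in 8% of carrier promoters and 10.7% of all. The core of the NRF1 motif, GCATGCGC, and the ERR element, TCAAGGTCA, were in 0 of the 50 carrier promoters and in 2.64% and 0.320% of all. Both words are so rare in all promoters that 50 promoters are too few to show whether carriers lack them. Carriers with several promoters counted several times in these shares, and no motif was tested against the log2 ratios.

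The phosphate carrier supplies the other substrate of ATP synthase. SLC25A3, which also brings copper to the matrix, had 370 TPM in si-NC against 532 TPM in si-FTO, with a log2 ratio of 0.52. Set against it, the ADP/ATP carriers summed to 5.41 times its level in si-NC and 3.22 times in si-FTO. The calcium-regulated carriers that exchange ATP-Mg for phosphate, and so adjust the adenine nucleotide pool of the matrix, were less abundant. SLC25A23, the main one, had 109 TPM in si-NC against 87.6 TPM in si-FTO, with a log2 ratio of -0.32. Its relatives SLC25A24 and SLC25A25 had log2 ratios of 0.13 and 0.37. SLC25A41, a relative without the calcium-binding part, had 0.150 TPM in si-NC against 1.28 TPM in si-FTO, which put it just under the threshold at 0.98. It passed at 1.06 under median-ratio scaling, 1.20 under quantile normalization and 2.46 with a pseudocount of 0.1. SLC25A41 lies 2.30 kb from SLC25A23 on chromosome 19, and the neighbours thus had log2 ratios of opposite sign.

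Carriers of di- and tricarboxylates link the citric acid cycle with the cytosol. SLC25A1, the citrate carrier that feeds cytosolic lipid synthesis, had 238 TPM in si-NC against 277 TPM in si-FTO, with a log2 ratio of 0.22. SLC25A11, which exchanges malate for oxoglutarate, had 151 TPM in si-NC against 98.8 TPM in si-FTO, with a log2 ratio of -0.61. The dicarboxylate carrier SLC25A10 and the oxodicarboxylate carrier SLC25A21 were also below 0, with log2 ratios of -0.23 and -0.95. None of the 4 passed the threshold in the main setting, compared with 17% lower and 11.4% higher among all genes compared. SLC25A21 passed at -1.32 with a pseudocount of 0.1. SLC25A11 overlaps the gene RNF167, which lies on the opposite strand and had 115 and 140.0 TPM.

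SLC25A11 works in the malate-aspartate shuttle, which carries reducing equivalents of NADH into the matrix, together with the aspartate-glutamate carriers SLC25A12 and SLC25A13. SLC25A13, the most abundant carrier of amino acids, had 58.2 TPM in si-NC against 53.1 TPM in si-FTO, with a log2 ratio of -0.13 that turned to 0.08 under median-ratio scaling. SLC25A12 had a log2 ratio of 0.35, and the ratio of SLC25A12 to SLC25A13 was 0.490 in si-NC against 0.687 in si-FTO. The enzymes of the shuttle, MDH1, MDH2, GOT1 and GOT2, all had log2 ratios below 0, as did 59.9% of all genes compared. Of the 4, 0 passed the threshold, compared with 17% lower and 11.4% higher among all genes compared. The median of these enzymes was -0.60, and -0.39 under median-ratio scaling. MDH2, the matrix malate dehydrogenase and the most abundant, had 572 TPM in si-NC against 330 TPM in si-FTO, with a log2 ratio of -0.79.

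The carriers of amino acids and carnitine as a group, SLC25A12 and SLC25A13 included, differed little. Of the 9 compared, 0 passed the threshold, compared with 17% lower and 11.4% higher among all genes compared. A log2 ratio under 0.5 in size was found for 6 (66.7%), compared with 42.6% of the protein-coding genes. The median of these 9 carriers was 0.16. Their summed level was 284 TPM in si-NC against 285 TPM in si-FTO. In the main setting the highest log2 ratio, 0.62, belonged to SLC25A20, which brings acylcarnitines into the matrix for fatty acid oxidation. The lowest, -0.56, belonged to the glutamate carrier SLC25A22, whereas its relative SLC25A18 had a log2 ratio of 0.54 at levels of 0.438 and 1.09 TPM. SLC25A18 stood above SLC25A20 at 0.79 under quantile normalization, and passed the threshold at 1.15 with a pseudocount of 0.1.

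The enzymes that make and unmake acylcarnitines spread more widely than their carrier. CPT1A, the form of carnitine palmitoyltransferase at the outer membrane found in liver and many other tissues, had 12.5 TPM in si-NC against 88.2 TPM in si-FTO, with a log2 ratio of 2.72. CPT1B, the form of muscle, had 25.8 and 9.55 TPM, a log2 ratio of -1.35. The list of 5 thus held 1 gene (20%) higher and 1 (20%) lower, compared with 11.4% and 17% of all genes compared. Its median was -0.81. SLC25A20, with 24.7 and 38.4 TPM, lay above 0 as CPT1A did, and its relation to either enzyme was not tested.

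Carriers of nucleotides, coenzymes and vitamins lay on both sides of 0. Of the 9 compared, 6 (66.7%) had a log2 ratio below 0, near the 59.9% of all genes compared, and the median was -0.54. Relative to the median of all genes, 5 lay below and 4 above. SLC25A33, which imports pyrimidine nucleotides for mitochondrial RNA and DNA synthesis, had 19.4 TPM in si-NC against 9.18 TPM in si-FTO. Its log2 ratio of -1.002 lay at the threshold and came to -0.81 under median-ratio scaling and -0.88 under quantile normalization. SLC25A36, the other pyrimidine nucleotide carrier and the most abundant member of the group in si-FTO, had 60.1 and 83.9 TPM, a log2 ratio of 0.47. The ratio of SLC25A33 to SLC25A36 was 0.323 in si-NC against 0.109 in si-FTO, and their log2 ratios differed by 1.48, the most among the pairs compared with a pseudocount of 1. Without a pseudocount this ratio was 2.95 times as high in si-NC, and the ratio of SLC25A18 to SLC25A22 differed more, 3.72 times as high in si-FTO.

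Among the members of this group are carriers tied to coenzyme A. SLC25A17, a carrier of the peroxisome that moves coenzyme A and related nucleotides, had 70.6 TPM in si-NC against 35.3 TPM in si-FTO, just short of the threshold with a log2 ratio of -0.98. SLC25A16 and SLC25A42, both linked to coenzyme A in mitochondria, had log2 ratios of -0.84 and -0.76. The level of SLC25A16 relative to SLC25A42 was 0.829 in si-NC against 0.771 in si-FTO. Among the remaining carriers of cofactors, SLC25A26 for S-adenosylmethionine, the methyl donor, was at 0.11. SLC25A32, a carrier of folate and flavin, was at -0.07, and at 0.14 under median-ratio scaling.

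SLC25A51 carries NAD into the matrix, and its log2 ratio was -0.54. Its near copy SLC25A52 had 0.282 TPM in si-NC against 0.102 TPM in si-FTO. The coding sequences of this pair were 97.6% identical and their transcripts shared an exact stretch of 169 bases, so the separate values of both are uncertain. Among the 15 pairs aligned, the next highest identity was 87.7%, between the ornithine carriers SLC25A2 and SLC25A15.

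The enzymes of mitochondrial folate metabolism stand downstream of SLC25A32. All 5 had log2 ratios below 0, as did 59.9% of all genes compared, and the median of -0.29 came to -0.08 under median-ratio scaling. SHMT2, the serine hydroxymethyltransferase of mitochondria and the most abundant, had 234 TPM in si-NC against 199 TPM in si-FTO, with a log2 ratio of -0.24. The only enzyme past the threshold was ALDH1L2, which oxidizes formyl-folate in the matrix, with 16.7 and 6.26 TPM and a log2 ratio of -1.29. Thus 20% of the list was lower, compared with 17% of all genes compared.

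Carriers for iron and glutathione were led by SLC25A39, a carrier needed for glutathione in the matrix. It had 300.1 TPM in si-NC against 312 TPM in si-FTO, with a log2 ratio of 0.06. Its relative SLC25A40 was at 0.83, and at 1.02 under median-ratio scaling, so that SLC25A39 was 38.9 times as high as SLC25A40 in si-NC and 21.6 times in si-FTO. The iron carriers, the mitoferrins SLC25A28 and SLC25A37, lay on opposite sides with log2 ratios of -0.36 and 0.34. SLC25A37 is the form of developing red cells, and SLC25A28 is the form of other tissues. The ratio of SLC25A28 to SLC25A37 was 2.85 in si-NC against 1.72 in si-FTO.

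Matrix iron goes into heme and iron-sulfur clusters, and the genes of that list spread in both directions. Of 7 compared, 3 (42.9%) were lower and 0 higher, compared with 17% and 11.4% of all genes compared, and the median was 0.08. FECH, which inserts iron into heme, had 30.2 TPM in si-NC against 11.3 TPM in si-FTO, with a log2 ratio of -1.35. ABCB10, an exporter linked to heme synthesis, was at -1.04 with 35.5 and 16.8 TPM, and at -0.83 under median-ratio scaling. ISCU, the scaffold of iron-sulfur clusters, had the highest level in si-FTO with 86.5 TPM, compared with 65.2 TPM in si-NC, a log2 ratio of 0.40.

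The 3 relatives of the uncoupling proteins all had log2 ratios below 0, as did 59.9% of all genes compared. By the threshold 2 (66.7%) were lower, compared with 17% of all genes compared. Under either scaling 1 was lower, compared with 14.1% of all genes. SLC25A27 (ENSG00000153291, chromosome 6 from 46620652 to 46645927), best known from brain, had 15.9 TPM in si-NC against 2.89 TPM in si-FTO, with a log2 ratio of -2.12. SLC25A14 (ENSG00000102078, chromosome X from 129473862 to 129507335), also described in brain, had 34.1 TPM in si-NC against 15.8 TPM in si-FTO, with a log2 ratio of -1.06. That value came to -0.86 under median-ratio scaling and -0.99 under quantile normalization. The third of the group, SLC25A30, had a log2 ratio of -0.45, and the summed level of the group was 62.4 TPM in si-NC against 27.5 TPM in si-FTO. The neuronal markers given above were lower in the same group as these genes, and their part in the difference was not tested.

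The uncoupling proteins themselves and other relatives under different symbols lay mostly above 0. Of 5 such genes 4 were compared, 3 lay above 0, and the median log2 ratio was 0.38. The other 1 (25%) lay below 0, compared with 59.9% of all genes compared. Past the threshold were 0 of the 4, compared with 17% lower and 11.4% higher among all genes compared. UCP2, the widely expressed member, had a log2 ratio of 0.74, with 94.0 TPM in si-NC against 158 TPM in si-FTO. MTCH1, an outer membrane protein of the family fold and the most abundant of the list, had 266 TPM in si-NC against 252 TPM in si-FTO, with a log2 ratio of -0.08 that turned to 0.13 under median-ratio scaling.

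Among the carriers of the outer membrane or of less defined substrates were the largest log2 ratios in both directions with a pseudocount of 1. SLC25A48 (ENSG00000145832, chromosome 5 from 134812603 to 135225459) had 8.77 TPM in si-NC and was listed at 0 in si-FTO, so no fold is given. SLC25A45 (ENSG00000162241, chromosome 11 from 65142663 to 65151172) had 3.89 TPM in si-NC against 14.0 TPM in si-FTO, with a log2 ratio of 1.62. It was the only carrier above the threshold in the main setting, and with a pseudocount of 0.1 it was at 1.82, under the low SLC25A41. SLC25A46, an outer membrane protein that takes part in mitochondrial shape and the most abundant of the group, had 26.2 TPM in si-NC against 27.8 TPM in si-FTO, with a log2 ratio of 0.08. SLC25A53 was at -0.93, and at -1.03 with a pseudocount of 0.1, and SLC25A35 at 0.48.

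Paralogs of this family often share a substrate while differing in tissue, so 14 fixed pairs were set side by side. Both genes were compared in 11 of them. The log2 ratios had opposite signs in 6 pairs, and in 5 under median-ratio scaling, where the pair of SLC25A12 and SLC25A13 no longer did. They differed by at least 1 in 3 pairs, which were SLC25A33 and SLC25A36, SLC25A5 and SLC25A6, and SLC25A18 and SLC25A22. The closest pair was SLC25A16 and SLC25A42, with a difference of 0.07. Among all genes compared, 12279 had a log2 ratio below 0 and 8214 above, and 17% were lower and 11.4% higher by the threshold. Pairs of unrelated genes were not counted, so neither count of pairs can be read as a trait of paralogs.

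**Figure D4:**
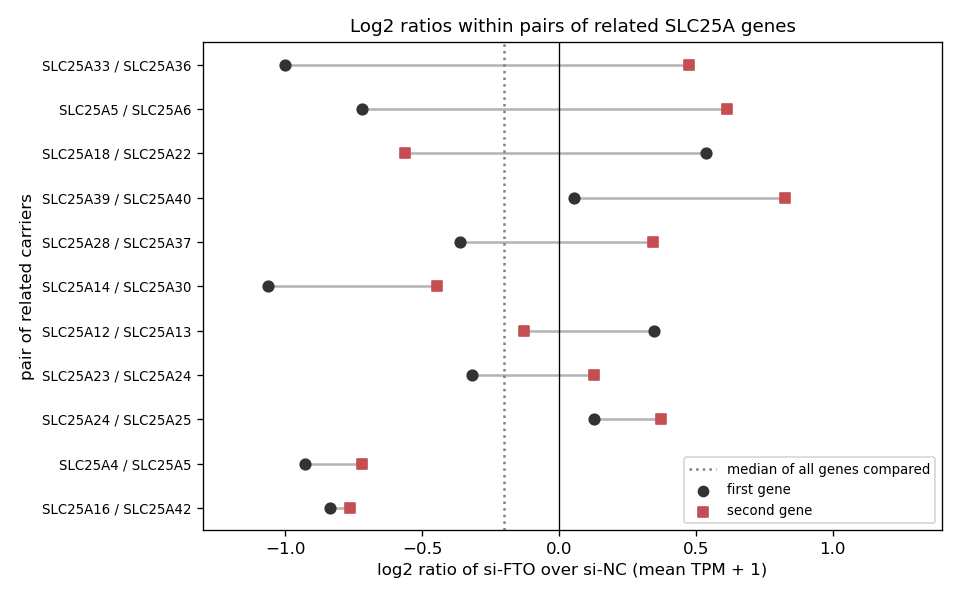
Log2 ratio of si-FTO over si-NC (horizontal axis, mean TPM with a pseudocount of 1) of the first gene (round points) and the second gene (squares) of each of the 11 pairs of related carriers in which both were compared, ordered by the size of the difference, with the median of all genes compared as a dotted line at -0.20. SLC25A33 and SLC25A36 stand farthest apart, at -1.002 and 0.47.

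Length set some of these pairs apart from the rest. The coding sequence of the median carrier had 942 bases, with a range from 822 bases in SLC25A26 to 2034 bases in SLC25A12. The aspartate-glutamate carriers SLC25A12 and SLC25A13 (2025 bases) and the ATP-Mg carriers SLC25A23, SLC25A24 and SLC25A25 (from 1404 to 1545 bases) carry an added calcium-binding part. The log2 ratios of these calcium-regulated carriers ran from -0.32 to 0.37. Of the 5, 0 passed the threshold, compared with 17% lower and 11.4% higher among all genes compared.

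Position in the genome was described next, because neighbouring genes also differed between the groups. For each carrier the median log2 ratio of the 50 nearest genes compared on its chromosome was taken. On chromosome X lie 5 carriers, and the 4 outside the pseudoautosomal region, SLC25A5, SLC25A14, SLC25A43 and SLC25A53, were all below 0, with log2 ratios of -0.72, -1.06, -0.23 and -0.93. The medians of their neighbours were -0.65, -0.83, -0.68 and -0.81. SLC25A6, which lies in the pseudoautosomal region, was at 0.61, and the median of its neighbours was 0.38. Those 50 neighbours were taken along chromosome X with no limit at the end of that region. Their median is therefore not a value of the pseudoautosomal region. Over all 700 genes compared on chromosome X the median was -0.30, 60.4% were below 0, compared with 59.9% of all genes, and 23.9% were lower by the threshold, compared with 17% of all genes.

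SLC25A5 and SLC25A43 lie 13.9 kb apart and so share most of their neighbourhood. SLC25A17 on chromosome 22, at -0.98, also lay among genes with a low median of -0.79. The carriers farthest from 0 did not stand in such surroundings, since the neighbours had medians of -0.30 at SLC25A27, 0.02 at SLC25A48 and 0.12 at SLC25A45. At SLC25A33 the median was -0.23. The part of these neighbourhoods in the values of the carriers was not tested.

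Carriers work beside other transport systems of the inner and outer membrane. Of the 10 other transporters and pores on the list, 4 (40%) were lower and 1 (10%) higher in si-FTO, compared with 17% and 11.4% of all genes compared. The median was -0.47, and under median-ratio scaling 2 were lower. The mitochondrial pyruvate carrier gene MPC1 had 86.8 TPM in si-NC against 27.6 TPM in si-FTO, with a log2 ratio of -1.62. Among sideroflexins, which include the serine carrier SFXN1, SFXN2 was at -1.77 with 22.6 and 5.92 TPM, SFXN1 at -1.003 with 147 and 72.8 TPM, and SFXN3 at 1.28 with 25.6 and 63.7 TPM. The outer membrane channel gene VDAC3 was at -1.06 with 356 and 170.1 TPM, whereas VDAC1, the most abundant, had 479 and 372 TPM, a log2 ratio of -0.36. SFXN1 and VDAC3 came to -0.79 and -0.85 under median-ratio scaling and stayed past the threshold at -1.05 and -1.12 under quantile normalization, where 4 were lower.

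Carrier proteins are made in the cytosol and enter through TOMM70, the small TIM proteins and the TIM22 complex. Of the 10 genes of this route 1 (10%) was lower and 0 higher, compared with 17% and 11.4% of all genes compared. The median was -0.30. AGK, a lipid kinase that is also a subunit of the TIM22 complex, had 50.9 TPM in si-NC against 14.9 TPM in si-FTO, with a log2 ratio of -1.71. The small TIM gene TIMM10 was the most abundant in si-FTO, with 126 TPM compared with 111 TPM in si-NC, a log2 ratio of 0.19. The core gene TIMM22 was at -0.83.

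The calcium uniporter passes calcium, to which the ATP-Mg and aspartate-glutamate carriers respond from the other side of the membrane. Of its 7 genes 1 (14.3%) was lower and 0 higher, near or below the 17% and 11.4% of all genes compared. The median was -0.39. MCUB, an inhibitory form of the pore, had 46.0 TPM in si-NC against 17.9 TPM in si-FTO, with a log2 ratio of -1.31.

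Of 8 transcriptional regulators of mitochondrial genes, 3 (37.5%) were higher and 1 (12.5%) lower, compared with 11.4% and 17% of all genes compared. The coactivator PPARGC1A had 3.02 TPM in si-NC against 13.9 TPM in si-FTO, with a log2 ratio of 1.89, while its relative PPARGC1B had 20.7 and 4.28 TPM, a log2 ratio of -2.04. The nuclear receptor ESRRA, a partner of both, had 38.3 and 83.4 TPM, a log2 ratio of 1.10, which was the highest level of the list in si-FTO. MYC had 20.7 and 63.2 TPM, a log2 ratio of 1.57. The other 4, PPRC1, NRF1, GABPA and TFAM, lay under the threshold, and whether the regulators bear on the carriers was not tested.

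**Figure D5:**
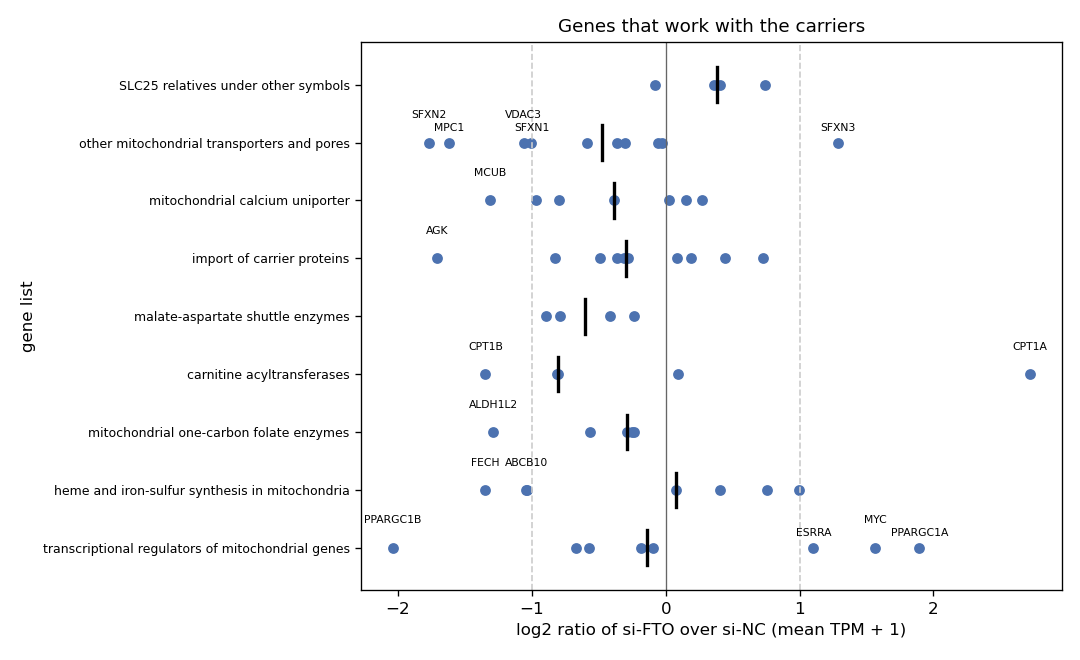
Log2 ratio of si-FTO over si-NC (horizontal axis, mean TPM with a pseudocount of 1) of each gene compared in 9 lists of genes that work with or beside the carriers, with the median of each list as a black bar, dashed lines at the threshold of 1 and names for most genes past it. The enzymes of the malate-aspartate shuttle all lie below 0 with a median of -0.60, and CPT1A stands farthest out at 2.72.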

How the data were processed

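Total RNA from 6 libraries of AGS cells, 3 in each group, had been sequenced after preparation with a stranded kit. The paper's methods name Bowtie and RSEM with the build hg19, whereas the submitters' processing notes name HISAT2 and hg19, and the annotation release is not given in the sources used here. The deposited values are TPM, averaged by the authors over the libraries of each group, which hides the spread between libraries and keeps no depth. The table's columns of fold changes, p-values and q-values hold the authors' own comparison and were not used, nor was a second table of genes selected by it.

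Symbols, positions and transcripts came from GENCODE release 44 lifted to GRCh37, the same build as hg19, and 55726 of the 58174 identifiers were matched. Group means allow no test, so calls rest on the log2 ratio with a pseudocount of 1, a minimum mean TPM of 0.5 and a threshold of 1. Alternatives were a pseudocount of 0.1, median-ratio scaling, quantile normalization, no filter, a minimum of 5 TPM, a fold of 1.5 and a log2 ratio of at least 2. Any SLC25A gene could be named. Full values were to be given for carriers past the threshold, for those with at least 100 TPM in a group and for the most abundant of each substrate group, and of other lists for members past the threshold and the most abundant. A few of these genes are not reported here. Values of further genes, the motifs, the neighbouring genes and the sequence comparison were chosen after the levels had been seen. The members and lists were chosen with earlier results of these data known. Coding sequences of canonical transcripts were aligned globally, and identity is the percent of aligned base pairs.

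The calculations used Python 3.11.15, numpy 2.4.6, pandas 2.3.3, Biopython 1.88 and matplotlib 3.10.9, and were tested on simulated data.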

Additional observations from a re-analysis of the deposited data

How the results depend on the processing

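No paired analysis was possible because the table holds 1 mean per group, and for the same reason the alternatives that leave out a replicate or use the replicate number as a block were not run. FTO stayed past the threshold in every setting tried for it, with a log2 ratio of -2.17 with a pseudocount of 0.1, -1.85 under median-ratio scaling and -1.92 under quantile normalization.

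The counts of carriers, 4 lower and 1 higher, were the same with no filter and with at least 5 TPM. With a pseudocount of 0.1 they were 6 and 3, under median-ratio scaling 2 and 3, and under quantile normalization 2 and 2. A fold of 1.5 gave 12 lower and 5 higher, and a log2 ratio of at least 2 gave 2 and 0. Among all genes compared, the percent lower and higher was 14.1 and 13.6 under either scaling, with a pseudocount of 0.1 it was 25.1 and 16.0, with a fold of 1.5 it was 31.2 and 18.8, and with a log2 ratio of at least 2 it was 6.06 and 4.76. The carriers had smaller shares in each of these settings. With no filter, all genes had 6.003 and 4.02 and the carriers 8.33 and 2.08, so the share lower was above that of all genes.

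The median log2 ratio of the carriers, -0.10, was reversed to 0.10 under median-ratio scaling. It was -0.11 with a pseudocount of 0.1, -0.016 under quantile normalization, -0.033 with no filter and -0.12 with at least 5 TPM. Under quantile normalization 44 carriers passed the filter. Over the 43 of the main setting its median was -0.022, with the same counts of 2 lower and 2 higher. The log2 ratio of the summed TPM, -0.08, was reversed to 0.13 under median-ratio scaling and to 0.18 without SLC25A5. Among single carriers, median-ratio scaling reversed SLC25A13 to 0.080, SLC25A32 to 0.14 and SLC25A44 to 0.10, and it left 36 of 43 on their side of the threshold with their direction, as did quantile normalization for 40 and a pseudocount of 0.1 for 39. The 4 that passed the threshold with this pseudocount but not in the main setting were SLC25A18, SLC25A21, SLC25A41 and SLC25A53. The ratio of SLC25A6 to SLC25A5, 2.53 times as high in si-FTO, was 2.54 times as high under quantile normalization. This ratio was chosen as a result after seeing the data. The scalings remove the shift of all genes by construction, and the cause of that shift was not tested.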

Other observations

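Some transcripts with SLC25A symbols lie outside the protein-coding members. Of 43 pseudogenes with such symbols, 18 were listed at 0 in both groups and 41 were under 0.5 TPM in both, where the highest value was 0.341 TPM. The exceptions were the copies of SLC25A24, a carrier of ATP-Mg. SLC25A24P1 was listed at 0 in si-NC and had 3.07 TPM in si-FTO, and SLC25A24P2 was listed at 0 in si-NC and had 0.838 TPM in si-FTO. SLC25A24 itself had 20.3 and 22.3 TPM. The antisense gene SLC25A34-AS1 was listed at 0 in si-NC and had 0.735 TPM in si-FTO, while SLC25A34 had 0.181 and 0.431 TPM.

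Overlap with another gene compared was found for 22 of the carriers. The partner was more abundant than the carrier at several of them, for example at SLC25A12, where HAT1 on the opposite strand had 90.4 TPM in si-NC against 101 TPM in si-FTO, and at SLC25A35, where RANGRF had 73.0 and 42.3 TPM. SLC25A26 had a log2 ratio of 0.11, and LRIG1, on the opposite strand, had one of -1.10. SLC25A40 had 0.83 and DBF4, on the opposite strand, -0.70. How the reads of these overlaps were divided is not known.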
